A study of Mus musculus with 4 samples.

Results

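Passenger strands are the miRNAs that array names of this generation mark with a star, the arm of a hairpin opposite the named guide. Of 567 mouse names on the array, 114 carried a star, and 94 of these were kept after names of the Dlk1-Dio3 locus, of rodent-specific clusters and of miR-199b were set aside by number. Of the 94 passenger strands, 26 were detected above background on at least 1 array, 7 on every array and 68 on none. Small RNA came from B104 cells, a neuroblastoma line, on 4 one-colour Agilent arrays that shared 1 slide: 2 of control cells, which were mock-transfected without an siRNA, and 2 of cells transfected with 20 nM RBM3 siRNA (siRBM3). Both groups were harvested after 48 h. RBM3, an RNA-binding protein that cold induces, is read from messenger RNA or protein, so its knockdown cannot be checked on an array of miRNAs. The labels give mouse as the species while the methods cite the line as one of the rat central nervous system, the names are those of the mouse array, and the labels do not say whether replicates 1 and 2 came from separate cultures, so p-values measure only the spread between these arrays.

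A canonical hairpin is cut from its primary transcript by Drosha in the nucleus and from its loop by Dicer in the cytoplasm, which leaves a short duplex of its arms. One arm, the guide, is loaded into an Argonaute protein and kept, while the passenger strand is mostly discarded and degraded, so its level follows both how much hairpin is made and how the strands are sorted. Some passenger strands are loaded as well and repress targets of their own through a seed that differs from that of the guide.

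Sequences of the passenger strands on which the results turn are shown with the seed, bases 2 to 8, in capitals, because the seed decides which messages a loaded strand would pair with. Of the 26 detected names, 25 were matched to a RefSeq mature sequence (GRCm38.p6). The array files hold no probe sequences, so the match goes by name, each star being taken as the arm that later naming sets opposite the guide. The first 7 are the strands detected on every array, the next 3 lost detection after knockdown with the highest bounds on their fold, and the last pair shares a seed.
miR-9*: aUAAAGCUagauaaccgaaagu
miR-140*: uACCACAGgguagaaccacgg
miR-24-2*: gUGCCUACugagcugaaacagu
miR-21*: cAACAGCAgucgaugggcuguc
miR-99b*: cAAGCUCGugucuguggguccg
miR-135a*: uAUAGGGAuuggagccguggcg
miR-322*: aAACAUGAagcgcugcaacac
miR-455*: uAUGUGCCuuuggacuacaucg
miR-31*: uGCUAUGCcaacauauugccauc
miR-674*: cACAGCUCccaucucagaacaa
miR-30a*: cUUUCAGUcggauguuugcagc
miR-30e*: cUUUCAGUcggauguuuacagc
The 25 strands were 21 to 23 bases long and carried 24 distinct seeds, the only shared one being that of miR-30a* and miR-30e*, UUUCAGU, and these strands differ at 1 of 22 bases, so their probes may have read each other's strand. The same miR-9* sequence is made by the hairpins Mir9-1 (chr3:88215598-88215686, plus strand), Mir9-3 (chr7:79505264-79505353, plus strand) and Mir9-2 (chr13:83738814-83738885, plus strand), which the array cannot tell apart. Mir140 (chr8:107551244-107551313, plus strand) lies within the span of Wwp2, Mir21a (chr11:86584067-86584158, minus strand) within that of Vmp1, and Mir135a-1 (chr9:106154124-106154213, plus strand) within those of Glyctk and D030055H07Rik. The mature miR-455* (chr4:63256867-63256888, plus strand) lies within the span of Col27a1 and the mature miR-99b* (chr17:17830232-17830253, plus strand) within that of Spaca6. Whether these positions are exonic or intronic was not examined.
The hairpins of miR-21 and miR-140, whose arms changed unequally, are shown with the passenger strand in capitals.
Mir21a: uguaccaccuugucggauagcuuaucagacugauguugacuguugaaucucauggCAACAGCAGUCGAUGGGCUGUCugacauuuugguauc
Mir140: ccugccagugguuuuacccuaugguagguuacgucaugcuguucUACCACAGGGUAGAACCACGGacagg

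Passenger strands were dim, and most of those detected on at least 1 array gave less signal on the knockdown arrays. The star is the array's naming and does not rank the arms by signal. miR-140* gave more signal than miR-140 on every array, and miR-135a* was detected on every array and miR-135a on none. In the control replicates miR-674* gave 63.1 and 72.2 against 19.3 and 25.9 for miR-674, although signal levels also depend on the probes. Feature Extraction, the scanner software, flagged 17 and 24 of the passenger strands as detected in the control and 7 and 10 in the knockdown replicates. For their 88 guide arms the numbers were 61 and 61 against 51 and 51, and for all mouse miRNAs 177 and 190 against 147 and 162. The flag marks a miRNA if any of its probes is above background, so it is no fixed signal threshold: the highest undetected total signal of any mouse miRNA was 26.2 on control replicate 1, while the lowest detected one was 4.82. Where a miRNA was detected on no array of one group, only a bound on its fold is given, on unscaled signal: the geometric mean of the other group over that of a limit, which on each array was the highest of the miRNA's own signal, 3 times its error and the lowest detected signal. For miR-31*, miR-29b* and miR-877 that limit was their own signal on both arrays, so their bound is the measured ratio of geometric means. The 6 positive control probes also lost signal, with log2 changes of -0.66 to -1.56, and the part of this in the members' changes was not tested. As a check of the cells, of 8 neural miRNAs, 5 were detected on each control array and 3 on each knockdown array, with miR-124, miR-137 and miR-138 at background throughout, while all 4 skeletal muscle miRNAs were detected on every array and those of blood and liver on none. In bulk RNA, fewer cells with a strand and less of it per cell cannot be told apart.

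**Figure D1:**
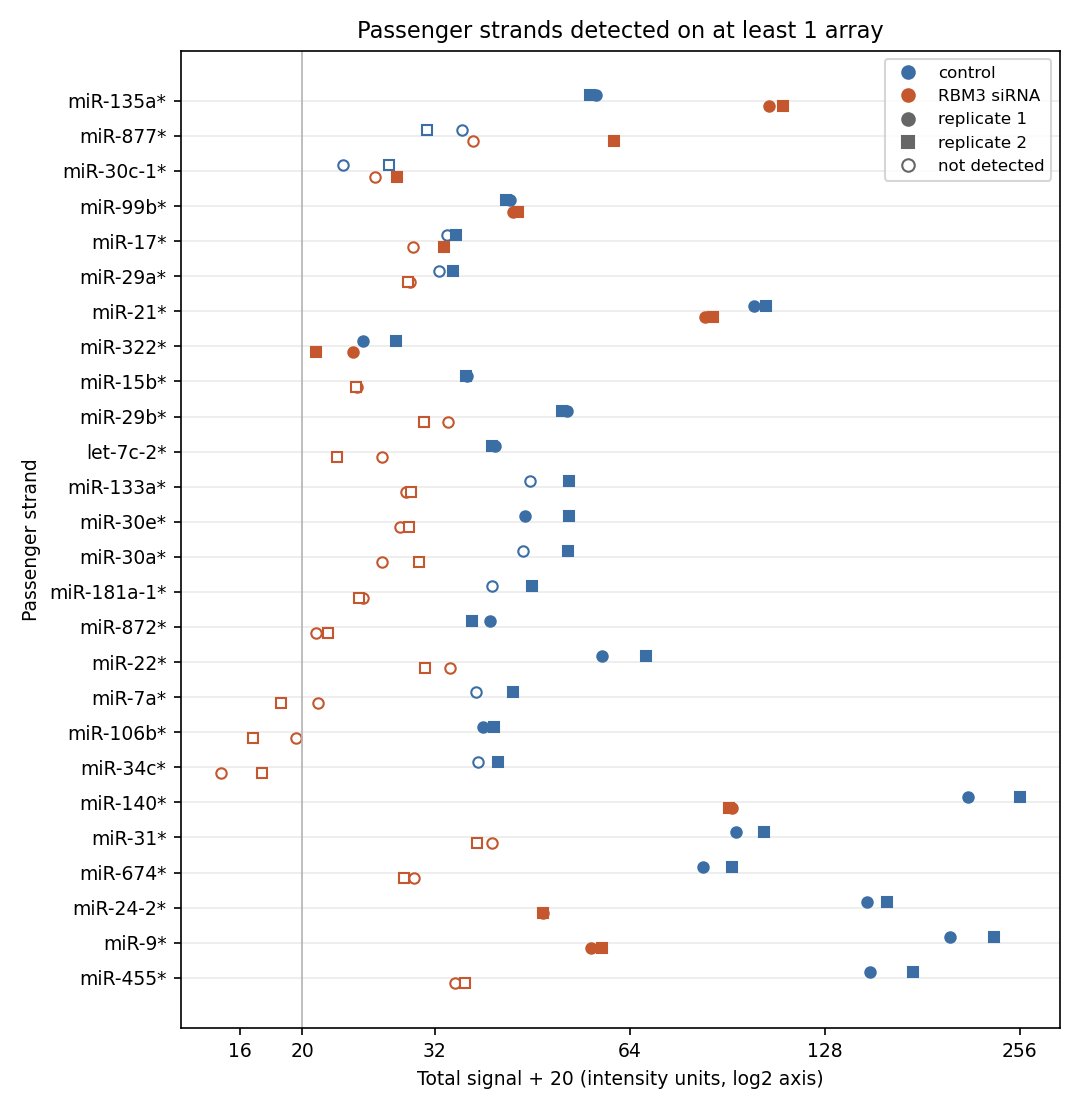
The x axis is the total signal with 20 added, in intensity units and log2-spaced, and each line is 1 of the 26 detected passenger strands, ordered by log2 change. Blue points are control and orange points RBM3 siRNA arrays, circles replicate 1 and squares replicate 2, and open points are not detected; the grey line marks a total signal of 0. In unscaled signal both knockdown arrays lay below both control arrays for 22 strands and above them for 3 (miR-135a*, miR-99b* and miR-877*).

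Which passenger strands changed after RBM3 knockdown was asked with limma on log2 of the total signal plus 20, scale-normalized between arrays, over the 214 mouse miRNAs detected on at least 1 array, with the replicate number as a block. At an adjusted p under 0.05, 18 of the 26 passenger strands were lower and 2 were higher (1 without miR-877*, a mirtron), and 6 did not pass. That is 69.2% lower and 7.69% higher, beside 77.1% lower and 17.8% higher among all 214. A strand detected in 1 group alone, control or knockdown, entered the test only through that group, so these counts are a description. The median log2 change was -0.61 for the passenger strands and -1.22 for all 214, and adding 20 draws the change of dim strands towards 0. In unscaled signal, 22 strands had both knockdown arrays below both control arrays, beside 79.9% of all 214, and 3 had them above, beside 18.7%. The 68 undetected strands, with total signals between -14.8 and 18.1 on control replicate 1, had both knockdown arrays below in 18 cases and above in 11, beside 92 and 57 of all 353 undetected mouse miRNAs.

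These directions depended on how the arrays were scaled. The percentages in this paragraph give, of all miRNAs among the 214 that passed in either direction, the share that was lower, which was 81.3% with the scale normalization above. Against 18 lower and 2 higher, centring on the 75th percentile of the miRNAs detected on every array gave 0 lower and 24 higher (13.04%), centring on that of all mouse miRNAs 10 and 8 (74.1%), and centring on the positive control probes 4 and 15 (57.8%). With the positive control probes most passenger strands called were higher, while most of all miRNAs called were lower. Quantile normalization gave 14 and 4 (66.9%), normexp background correction with quantile normalization 10 and 3 (66.5%), the processed signal per probe 6 and 12 (49.7%), and scale normalization without the offset 4 and 8 (12.7%). With no scaling the counts were again 18 and 2 (82.7%), and without the offset as well 19 and 2 (85.3%). These scalings moved the median of all 214 miRNAs between -2.16 and 1.90, so changes are given below also relative to it. Over the 10 ways of processing the values, miR-455* was negative in every one, miR-135a*, miR-877*, miR-99b* and miR-30c-1* were positive in every one, and the other 21 strands took either sign. Because miR-455* was detected on control arrays alone, and miR-877* and miR-30c-1* on knockdown replicate 2 alone, their signs are descriptions. Set against the median of all miRNAs within each way of processing, miR-455*, miR-674*, miR-9* and miR-24-2* were below it in all 10, and miR-140* and miR-21* were above it in all 10, as were the 4 strands that were positive throughout. miR-674*, like miR-455*, was detected on control arrays alone, so the places of both below the median are descriptions, as are those of miR-877* and miR-30c-1* above it.

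**Figure D2:**
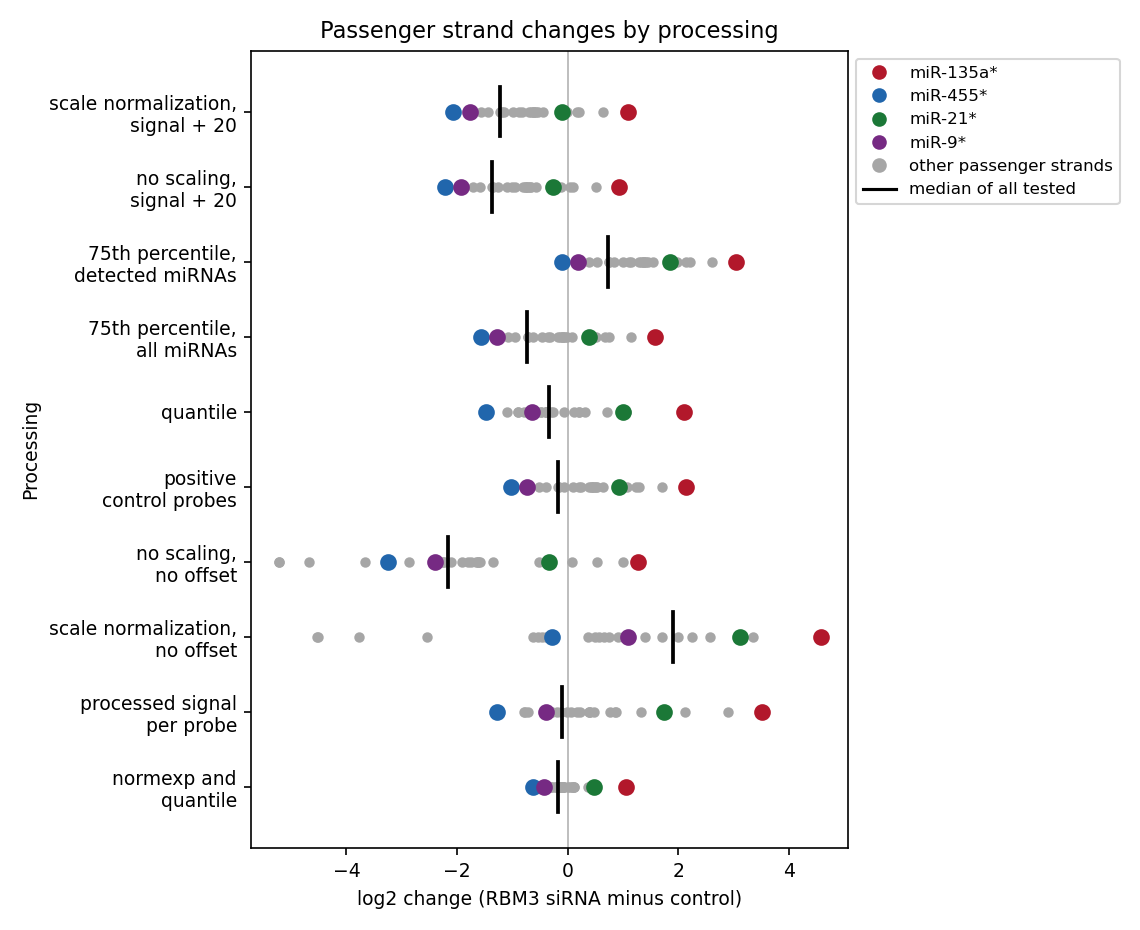
Log2 change (RBM3 siRNA minus control) of the 26 passenger strands under 10 ways of processing the values. Points are strands and black bars the median of all 214 miRNAs tested. The bars run from -2.16 to 1.90, and the sign of most strands turns with them, while miR-455* stays below 0 and miR-135a* above 0.

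Among strands detected on every array, miR-9*, miR-24-2* and miR-140* were those that passed as lower with the scale normalization. miR-9*, the partner of the neural miR-9 and known to repress CoREST, gave 180 and 214 in the control replicates and 35.9 and 38.1 in the knockdown replicates. Both knockdown arrays were far below both controls, 5.30-fold in unscaled signal. Its log2 change was -1.76 ± 0.10 (SE, n = 2 per group, adjusted p from limma 2.92e-09), or -0.54 relative to the median of all miRNAs, and it was positive with centring on the 75th percentile of detected miRNAs (0.18) and with scale normalization without the offset (1.09). miR-24-2*, from the miR-23a, miR-27a and miR-24-2 cluster, gave 129 and 140 against 26.99 and 27.06, and the groups were apart by 4.96-fold in unscaled signal. It changed by -1.56 ± 0.10 (SE, n = 2 per group, adjusted p from limma 8.41e-09), or by -0.34 relative to the median, and was positive under the same pair of scalings (0.39 and 0.91). The strand of the other locus, miR-24-1*, was detected on no array, at 14.8 and 16.6 against -1.24 and -1.16. It shares the seed of miR-24-2* and first differs from it at base 17, and whether their probes read each other's strand was not tested. miR-140*, now named miR-140-3p and abundant in cartilage, gave 193 and 236 against 72.1 and 71.0. The groups did not overlap and the unscaled signal fell 2.98-fold. Its log2 change of -1.18 ± 0.10 (SE, n = 2 per group, adjusted p from limma 2.03e-07) lay 0.04 above the median of all miRNAs and was positive under 5 of the 10 ways of processing, up to 2.26.

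miR-21*, miR-99b* and miR-322*, also detected on every array, passed in neither direction. miR-21*, the partner of miR-21, which is raised in many tumours, gave 79.5 and 83.7 in control and 63.7 and 66.1 in knockdown cells. The knockdown arrays were slightly below the controls, 1.26-fold in unscaled signal. Its log2 change of -0.10 ± 0.10 (SE, n = 2 per group) did not pass (adjusted p from limma 0.317) and lay 1.12 above the median of all miRNAs, with positive values under 7 of the 10 ways of processing, up to 3.12. miR-99b*, of the miR-99b, let-7e and miR-125a cluster, gave 21.8 and 21.2 against 22.3 and 23.1. The 4 values were close, with both knockdown arrays above the controls. By probe, miR-99b* was mixed, with the brightest probe lower (27.5 and 27.4 against 22.4 and 22.4) and the others higher in the mean. Its change of 0.17 ± 0.10 (SE, n = 2 per group) did not pass (adjusted p from limma 0.121) and lay 1.39 above the median of all miRNAs, although it passed as higher under 6 of the 10 ways of processing, and none of its 4 probes was well above background by itself on any array. miR-322*, the mouse counterpart of the human miR-424 passenger strand, gave 4.82 and 7.93 against 3.98 and 1.01. It was flagged as detected on every array although its total lay near 0, since 1 of its 4 probes carried the signal. The errors of these totals were 4.84 and 4.50 in control and 4.05 and 3.63 in knockdown cells. No total reached 3 times its error, so the 3.08-fold fall in unscaled signal is only a description. The probe that carried the signal gave 26.96 and 37.05 against 24.2 and 22.9. The log2 change of miR-322*, -0.12 ± 0.11 (SE, n = 2 per group), did not pass (adjusted p from limma 0.296), lay 1.099 above the median and was positive under 5 of the 10 ways of processing, whereas with no offset and no scaling it was called lower (-1.62, adjusted p from limma 5.74e-05). In that setting every miRNA had the same SE of 0.39, so this p-value does not reflect the spread of miR-322* itself.

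miR-135a*, whose guide is a neural miRNA, was the only strand detected on every array that passed as higher. It gave 36.9 and 35.6 in the control replicates and 84.9 and 90.4 in the knockdown replicates. Both knockdown arrays were above both controls, 2.42-fold in unscaled signal. The log2 change was 1.09 ± 0.10 (SE, n = 2 per group, adjusted p from limma 3.74e-07), 2.31 above the median of all miRNAs, and it passed as higher under all 10 ways of processing. All 4 of its probes were higher, and the 1 probe well above background on every array changed by 0.97. The guide miR-135a was detected on no array, at 7.37 and 8.71 against 10.7 and 8.84, so no arm ratio could be had. The mirtron strand miR-877*, whose hairpin is a spliced intron of Abcf1 and is made without Drosha, gave 15.3 and 11.1 against 16.7 and 40.6. Only knockdown replicate 2 was detected, and knockdown replicate 1 was close to the controls. The strand thus entered the fit only through the group in which it was higher, so its change and call are given as descriptions. Its change of 0.63 ± 0.17 (SE, n = 2 per group, adjusted p from limma 0.0035) lay 1.85 above the median of all miRNAs, was 0.27 without knockdown replicate 2, and its call was lost when either control array was left out (0.75 and 0.52, adjusted p from limma 0.0889 and 0.196), with quantile normalization (1.05, adjusted p 0.164) and with no detection filter (0.63, adjusted p 0.147). Its guide miR-877 was detected in both knockdown replicates and neither control, at 15.7 and 20.5 against 43.2 and 49.8, at least 2.59-fold higher.

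Loss of detection was common among passenger strands. Of the 17 detected on both control arrays, 10 (58.8%) were detected on neither knockdown array, beside 23.2% of all 177 such miRNAs and 11 of 61 guide arms. These sets were not matched for brightness, and the part of brightness in this difference was not tested. A further 6 strands were detected on 1 control array alone, 2 on 1 knockdown array alone, and none on both knockdown arrays and no control array. Strands that lost detection entered the fit only through their control arrays, so their changes and calls are given as descriptions. miR-455*, of a hairpin within the collagen gene Col27a1, gave 131 and 155 in control and 14.4 and 15.7 in knockdown cells. It was at least 8.69-fold lower, with a log2 change of -2.07 ± 0.10 (SE, n = 2 per group, adjusted p from limma 1.08e-09), or -0.85 relative to the median, and it was negative in every way of processing, between -3.25 and -0.11, and passed in 8 of the 10. miR-674*, from a hairpin known in rodents, gave 63.1 and 72.2 against 9.79 and 8.66. It was at least 5.10-fold lower, with a change of -1.45 ± 0.10 (SE, n = 2 per group, adjusted p from limma 2.09e-08), or -0.23 relative to the median, and was positive only with centring on the 75th percentile of detected miRNAs (0.52). miR-31*, whose guide is known to restrain metastasis, gave 73.4 and 83.2 against 19.2 and 17.2. It was at least 4.30-fold lower, and its change of -1.22 ± 0.10 (SE, n = 2 per group, adjusted p from limma 1.14e-07) lay at the median of all miRNAs and was positive with centring on the 75th percentile of detected miRNAs (0.74) and with scale normalization without the offset (0.75).

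The other 7 strands that lost detection from both control arrays were lower as well. miR-22* gave 38.1 and 47.9 against 13.7 and 10.96, at least 2.64-fold lower. miR-29b*, from a family whose guides repress collagens, gave 31.3 and 30.3 against 13.6 and 10.9, at least 2.53-fold lower. miR-30e*, of a hairpin within the span of Nfyc, gave 24.1 and 31.6 against 8.28 and 9.23, at least 1.72-fold lower. In each of these the control arrays were both above the knockdown arrays, with log2 changes of -0.83, -0.53 and -0.61. let-7c-2*, of the family that restrains growth and is held back by Lin28, gave 19.6 and 19.3 against 6.56 and 2.60. miR-106b*, of a hairpin within the span of the replication gene Mcm7, gave 17.98 and 19.5 against -0.44 and -3.23. Neither pair of groups overlapped, and the bounds were 1.72-fold and 1.66-fold. miR-872*, of a hairpin within the span of Ift74, gave 18.96 and 16.6 against 1.01 and 1.93. miR-15b*, of a hairpin within the span of the condensin gene Smc4, gave 15.9 and 15.7 against 4.28 and 4.19. Again both control arrays were above, with bounds of only 1.57-fold and 1.40-fold, since the limit lay close to the control signal. The log2 changes of these 7 ran from -0.99 for miR-106b* to -0.45 for miR-15b* or 0.23 to 0.77 above the median of all miRNAs, and all were positive with centring on the 75th percentile of detected miRNAs, at 1.01 to 1.54.

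The 6 strands detected on control replicate 2 alone were at the limit of the assay. miR-34c*, of a p53-induced family, gave 17.3 and 20.0 in control and -5.03 and -2.69 in knockdown cells. miR-7a*, of a hairpin within the span of Hnrnpk, gave 17.01 and 22.3 against 1.14 and -1.45. Both strands were at background after knockdown, and their changes were -1.15 and -0.88. miR-133a*, the partner of a muscle miRNA, gave 24.8 and 31.7 against 8.90 and 9.42. miR-30a* gave 23.9 and 31.5 against 6.50 and 10.3. miR-181a-1*, whose guide tunes T-cell receptor signalling, gave 19.3 and 25.3 against 4.81 and 4.42. In these 5 both control arrays were above both knockdown arrays, at least 1.17-fold to 1.75-fold, and the log2 changes of -1.15 to -0.60, or 0.07 to 0.62 above the median of all miRNAs, became positive with centring on the 75th percentile of detected miRNAs (0.84 to 1.38). miR-29a* gave 12.5 and 14.2 against 9.34 and 9.16, and its change of -0.07 ± 0.10 (SE, n = 2 per group) did not pass (adjusted p from limma 0.493), lay 1.15 above the median and was positive under 7 of the 10 ways of processing. miR-17*, of the miR-17-92 polycistron, was detected on replicate 2 of both groups, at 13.5 and 14.6 against 9.62 and 13.0, and its change of -0.0018 did not pass (adjusted p from limma 0.986, n = 2 per group), lay 1.22 above the median and was positive under 7 of the 10 ways of processing. miR-30c-1* was detected on knockdown replicate 2 alone, at 3.13 and 7.19 against 5.92 and 7.99. It was the only detected strand whose groups overlapped, and its change of 0.21, or 1.43 above the median, did not pass (adjusted p from limma 0.0544, n = 2 per group), though it did under 6 of the 10.

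By family, the counts of passenger strands were small, and 77.1% of all 214 miRNAs tested were lower. Of 7 let-7 strands 1 was detected and lower, and of 8 strands of the miR-17-92 family and its paralogs 2 were detected and 1 was lower. Of 5 miR-30 strands 3 were detected and 2 were lower, of 3 miR-29 strands 2 were detected and 1 was lower, and of 4 strands of the miR-23, miR-24 and miR-27 family 1 was detected and lower. Of 7 neural strands 3 were detected, with miR-9* and miR-7a* lower and miR-135a* higher. Apart from miR-24-2* and miR-9*, the strands counted as lower here were detected on control arrays alone, so these counts are a description. All of the strands counted as lower were positive with centring on the 75th percentile of detected miRNAs. Among 67 undetected strands with a guide name on the array, 33 had a guide that was detected on every array.

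On the same scale-normalized values the guide arms moved further than the passenger strands. Of the 26 guides, 25 were tested, 24 were lower and 1, miR-877, was higher, with a median log2 change of -1.77 that depends on the scaling as those of the passenger strands do. Since the offset draws dim strands towards 0, the arms of one hairpin were compared by the ratio of their unscaled signals within an array, in which any factor common to the array cancels. The level of the ratio depends on the probes and is not read here. It was tested with limma over the 9 hairpins of the array with both arms detected on every array, 4 of which passed (44.4%), and 6 of the 9 belonged to the passenger strands described here, of which 3 passed. A hairpin whose passenger strand lost detection could not enter, so these 6 are a selected set.

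**Figure D3:**
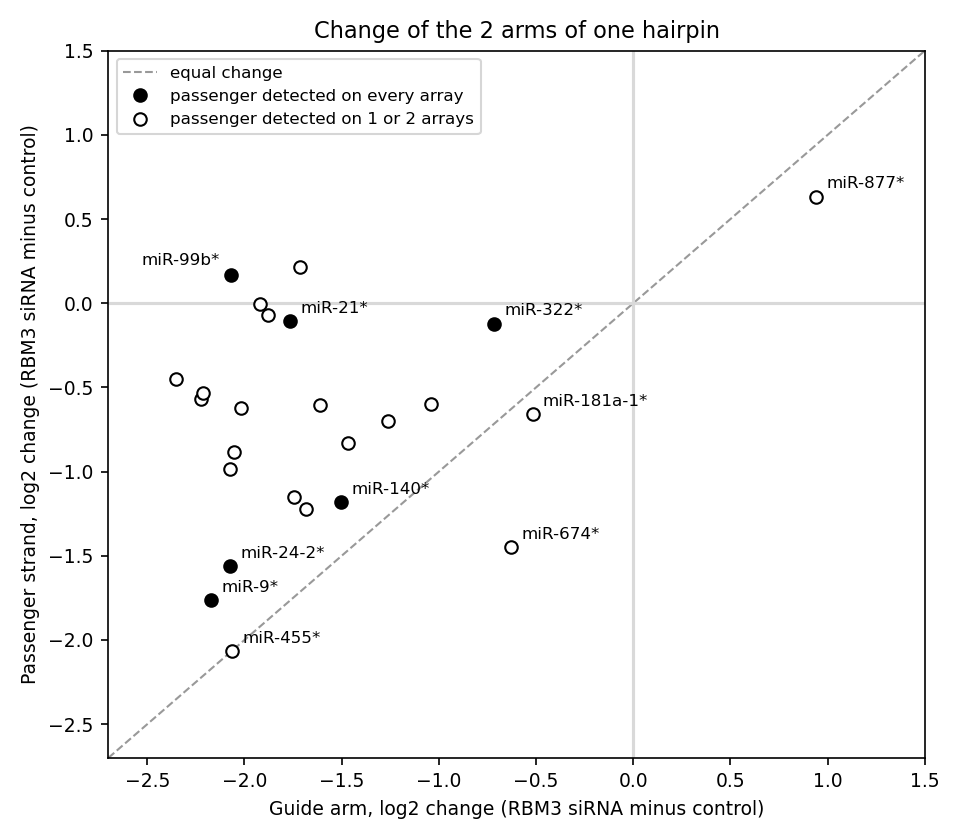
Log2 change (RBM3 siRNA minus control) of the guide arm on the x axis and of the passenger strand on the y axis for 25 hairpins, from scale-normalized log2 of the signal plus 20. Most points lie above the dashed line of equal change, where the offset also places dim strands; miR-455* lies on it and miR-674*, miR-877* and miR-181a-1* below it, and the signs turn under other scalings, for example with 24 of 26 strands higher after centring on the 75th percentile of detected miRNAs.

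For miR-99b, miR-21 and miR-140 the guide lost more signal than the passenger strand. miR-99b gave 284 and 324 in control and 48.9 and 47.7 in knockdown cells, while miR-99b* stayed between 21.2 and 23.1. The guide to passenger ratio changed by -2.73 ± 0.14 (SE, n = 2 per group, adjusted p from limma 0.0060), a 6.62-fold fall. Relative to the control mean the control arrays lay at -0.11 and 0.11 and the knockdown arrays at -2.68 and -2.77, so the groups were far apart. miR-21 gave 15524 and 17380 against 3826 and 3950, and with miR-21* almost level the ratio changed by -1.75 ± 0.09 (SE, n = 2 per group, adjusted p from limma 0.0060), a 3.36-fold fall. Relative to the control mean the knockdown arrays lay at -1.745 and -1.753 and the controls at -0.044 and 0.044, again with no overlap. miR-140 gave 111 and 139 against 26.8 and 25.0, a 4.80-fold fall beside 2.98-fold for miR-140*, and the ratio changed by -0.69 ± 0.09 (SE, n = 2 per group, adjusted p from limma 0.0295). A background that adds to the signal does not cancel in a ratio, and its part for miR-99b*, whose probes were near background, was not tested. The probes of miR-99b* also moved in different directions, with the brightest lower after knockdown. For miR-21*, the 2 probes well above background on every array changed by -0.32 and -0.34. The changes of miR-99b and miR-21 passed in all 11 fits of the ratio, at -2.89 to -2.24 and -1.83 to -1.66. That of miR-140 ran from -0.73 to -0.30, the smallest with the offset of 20 (-0.30) and with scale normalization (-0.32), passed in 10 of the 11 and missed where hairpins needed detection on the control arrays only (-0.69, adjusted p from limma 0.0601, n = 2 per group).

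For miR-24, miR-9 and miR-322 no change of the ratio was called. miR-24 gave 4669 and 5269 in the control replicates and 984 and 948 in the knockdown replicates, a 5.14-fold fall beside 4.96-fold for miR-24-2*. The ratio changed by -0.05 ± 0.09 (SE, n = 2 per group, adjusted p from limma 0.630), although miR-24 is made by both of its hairpins and the passenger strand by one. Each of the 2 probes of miR-24-2* was well above background on only 2 of the 4 arrays, and the part of background was not tested. miR-9 gave 482 and 522 against 80.1 and 83.6, a 6.13-fold fall beside 5.30-fold for miR-9*, and the ratio changed by -0.21 ± 0.09 (SE, n = 2 per group, adjusted p from limma 0.205). Both knockdown values lay below both controls. With the offset of 20 the ratios of miR-24 and miR-9 passed as lower, at -0.63 and -0.43. The ratio of miR-322 changed by 0.65 ± 0.87 (SE, n = 2 per group, adjusted p from limma 0.594), with the knockdown arrays on either side of the controls, and it turned with the processing. It passed as lower with the offset (-0.69, adjusted p from limma 5.86e-04), the processed signal (-0.82, 0.0037) and scale normalization (-0.60, 0.0032), passed as higher without knockdown replicate 1 (1.68, 0.014) and was -0.38 without knockdown replicate 2. The median change over the 6 hairpins was -0.45.

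**Figure D4:**
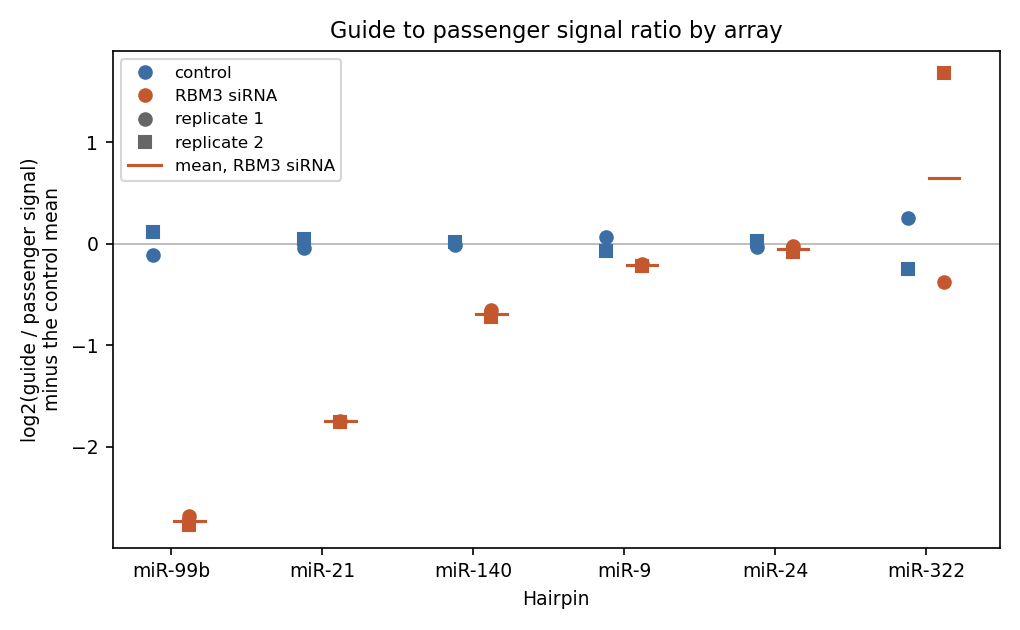
Log2 of the guide over the passenger signal, minus the mean of the control arrays, for the 6 hairpins with both arms detected on every array. Points are arrays and orange bars the mean of the RBM3 siRNA arrays. The knockdown arrays of miR-99b lie near -2.73, those of miR-21 near -1.75 and those of miR-140 near -0.69, while those of miR-322 lie on either side of the controls and its sign turns with the offset.

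Hairpins whose passenger strand lost detection have only a bound on the fall of that strand, so no change of their ratio is given. miR-455 fell 5.92-fold, from 343 and 400 to 65.6 and 59.7, beside at least 8.69-fold for its passenger strand, and miR-31 fell 4.22-fold beside at least 4.30-fold.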

How the data were processed

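The authors hybridised small RNA to Agilent mouse miRNA arrays and extracted intensity with Feature Extraction 10.1.1.1; per the file headers each spot holds a background-subtracted intensity and each miRNA a total signal, its error and a flag for detection. In the deposited value table stands the total intensity plus 20, equal within 2.27e-13. The probes' annotation names and the other text columns, deposited as labels, served only to find rows. No spot was saturated (0), and the number of arrays limits the precision.

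Here log2 of the total signal plus 20 was brought to one median absolute value by limma's scale normalization (version 3.58.1, R 4.3.3; factors of 0.993, 0.984, 1.01 and 1.01 on the log2 values), miRNAs detected on at least 1 array were kept (214), and lmFit and eBayes were run with the replicate number as a block, at a Benjamini-Hochberg adjusted p of 0.05. The block follows the study's methods, which fit paired samples; arrays of one number deviated in opposite directions (correlation over 214 miRNAs -0.33 scaled, -0.36 unscaled). The block leaves 1 residual degree of freedom per miRNA, so the very small p-values rest on a variance shared between miRNAs (prior of 10.7 degrees of freedom), not on more than 2 arrays per group. With no scaling, and without the offset whether scaled or not, the prior was infinite, so all miRNAs had the same SE. Unscaled folds are differences of mean log2 total signal. Every detected passenger strand was named, in detail those detected on every array, called, or detected in 1 group only. Members, lists and settings were chosen with earlier results of these data known. The scripts were tested on simulated data. Alternatives were other scalings, offsets, signals and filters, no block, and each array left out.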

Additional observations from a re-analysis of the deposited data

How the results depend on the processing

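The scaling decided the direction of most passenger strands, the arrays were 2 per group, and dim strands lie near the detection limit, where only bounds can be had. Against 18 lower, 2 higher and a median of -0.61, centring on the 75th percentile of the miRNAs detected on every array gave 0, 24 and 1.37, on that of all mouse miRNAs 10, 8 and -0.098, and on the positive control probes 4, 15 and 0.46. Quantile normalization gave 14, 4 and -0.38, normexp with quantile normalization 10, 3 and -0.12, the processed signal per probe 6, 12 and 0.20, and scale normalization without the offset 4, 8 and 0.62. No scaling gave 18, 2 and -0.74, and without the offset 19, 2 and -1.77. Over the 7 strands detected on every array the values were 3, 1 and -0.12, beside 111, 14 and -1.70 over all 130 such miRNAs. Over all 94 strands with no filter they were 21, 3 and -0.0018, beside 176, 52 and 0.012 over all 567 mouse miRNAs. The deposited values again gave 18, 2 and -0.61. With 1 array left out in turn, fitted without the block since the block then leaves no residual degree of freedom, the median ran from -0.68 to -0.57, the lower count from 18 to 19 and the higher count from 1 to 3; without control replicate 1 only miR-135a* was higher, without knockdown replicate 1 miR-30c-1* was higher as well and miR-322* was lower (0.27 and -0.22), and without control replicate 2 miR-30c-1* (0.31) took the place of miR-877*. Without the replicate block the counts were 18 and 2 and the arm ratio count 3, and no call changed; with no scaling and no replicate block the median was -0.74. A crossed pairing, added after seeing the data because the correlation of same-numbered arrays was negative, gave 18 lower, 3 higher and 3 arm ratios. The bound from 3 times the error was also chosen after seeing the data.

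Changes turned positive as follows. With the 75th percentile of detected miRNAs: let-7c-2*, miR-106b*, miR-133a*, miR-140*, miR-15b*, miR-17*, miR-181a-1*, miR-21*, miR-22*, miR-24-2* and miR-29a* at 1.42, 1.01, 1.38, 0.76, 1.54, 1.99, 1.33, 1.85, 1.15, 0.39 and 1.92, and miR-29b*, miR-30a*, miR-30e*, miR-31*, miR-322*, miR-34c*, miR-674*, miR-7a*, miR-872* and miR-9* at 1.45, 1.36, 1.38, 0.74, 1.88, 0.84, 0.52, 1.11, 1.29 and 0.18. With the 75th percentile of all mouse miRNAs: miR-15b*, miR-17*, miR-21*, miR-29a* and miR-322* at 0.076, 0.52, 0.38, 0.45 and 0.41. With the positive control probes: let-7c-2*, miR-106b*, miR-133a*, miR-15b*, miR-17*, miR-181a-1*, miR-21* and miR-22* at 0.51, 0.10, 0.47, 0.63, 1.08, 0.42, 0.94 and 0.24, and miR-29a*, miR-29b*, miR-30a*, miR-30e*, miR-322*, miR-7a* and miR-872* at 1.01, 0.54, 0.45, 0.47, 0.97, 0.20 and 0.38. With scale normalization without the offset: miR-133a*, miR-140*, miR-17*, miR-21*, miR-22*, miR-24-2*, miR-29a*, miR-29b*, miR-30a*, miR-30e*, miR-31* and miR-9* at 0.57, 2.26, 1.70, 3.12, 0.67, 0.91, 1.40, 0.997, 0.37, 0.50, 0.75 and 1.09. With the processed signal per probe: let-7c-2*, miR-133a*, miR-140*, miR-17*, miR-21*, miR-22*, miR-29a*, miR-29b*, miR-30a*, miR-30e* and miR-322* at 0.070, 0.41, 0.47, 0.87, 1.75, 0.17, 1.32, 0.86, 0.22, 0.38 and 0.38. With quantile normalization: miR-140*, miR-17*, miR-21* and miR-29a* at 0.21, 0.20, 1.01 and 0.12, and with normexp before it miR-140*, miR-17*, miR-21*, miR-29a* and miR-322* at 0.078, 0.11, 0.47, 0.0098 and 0.049. The causes were not tested.

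The arm ratio count of 3 and median of -0.45 became 6 and -0.66 with the offset of 20, 4 and -0.77 with the processed signal, 6 and -0.55 with scale normalization, 4 of 16 and -0.13 with detection on the control arrays alone (5 of all 23, with strands at background after knockdown among them), and 3 to 4 and -0.51 to -0.42 with an array left out. Of the 4 hairpins called with detection on the control arrays alone, miR-106b passed as higher and miR-99b, miR-21 and miR-29b as lower. Among these, miR-106b* and miR-29b* were detected on neither knockdown array. The ratio of miR-322 turned negative with the offset, the processed signal and scale normalization (-0.69, -0.82 and -0.60). Detection at 3 times the error gave 9 of 19 strands lost in place of 10 of 17.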
